A study of Mus musculus with 28 samples.

Results

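The complement components and receptors measured here are C1qa, C1qb and C1qc, the 3 chains of C1q, together with C4b, C3, the positive regulator properdin (Cfp) and the receptors C3ar1 and C5ar1. These 8 genes were taken by name from the 48587 gene rows of the count table, and all 8 were among the 15298 genes that passed the filter on low counts. RNA of FACS-sorted CD11b+CD45low hippocampal microglia was sequenced from 28 male mice on a C57BL/6J background that were 16 weeks old by the labels. Wild-type (WT) mice and heterozygous 5xFAD mice, which carry mutant human APP and presenilin transgenes under the neuron-specific Thy-1 promoter, were kept under specific pathogen free (SPF) or germ-free (GF) conditions, or were SPF mice given vancomycin, cefoxitin, gentamicin and metronidazole in the drinking water for 8 weeks (ABX). There were 14 WT mice (5 SPF, 5 ABX and 4 GF) and 14 5xFAD mice (3 SPF, 6 ABX and 5 GF). GF mice came from another facility than SPF and ABX mice, so that germ-free life and the origin of the mice cannot be told apart. Mouse FAD_GF_201 was used as a GF 5xFAD mouse by its title and genotype, although its description reads as WT.

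Complement is a cascade of blood and tissue proteins that tags surfaces for uptake and alerts immune cells. C1q binds a target and starts the classical pathway, in which C4 and C2 are cleaved and then cut C3, the central component whose fragments mark the target or signal through the C3a receptor. Downstream cleavage releases C5a, which acts on C5ar1, and properdin stabilizes the C3-cleaving enzyme of the alternative pathway. Microglia are known as the main source of C1q in the brain, where C1q and C3 take part in the removal of synapses.

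The C1q chains lie side by side on the minus strand of chromosome 4 in the order C1qb, C1qc and C1qa, in a stretch of 18675 bases (GRCm38, GENCODE M21). C1qb spans chr4:136880129-136886187, C1qc chr4:136889804-136893065 and C1qa chr4:136895917-136898803. C4b lies at chr17:34728380-34743882, C3 at chr17:57203970-57228136, C3ar1 at chr6:122847138-122856161, C5ar1 at chr7:16246743-16259540 and Cfp at chrX:20925454-20931555, all of them protein coding and on the minus strand. The RefSeq promoter set (GRCm38.p6) held an entry for 6 of the 8 genes, and C1qa and C4b had none. The sequence before the start is shown for C1qb and C1qc, because these neighbouring chains moved together across the mice. Each is written 5′ to 3′ on the strand of the gene, ends before the annotated exons of its gene, and carries in capitals the letters GAGGAA (or TTCCTC, the same letters on the other strand), the core bound by PU.1, a transcription factor of myeloid cells.
C1qb, chr4:136886201-136886450: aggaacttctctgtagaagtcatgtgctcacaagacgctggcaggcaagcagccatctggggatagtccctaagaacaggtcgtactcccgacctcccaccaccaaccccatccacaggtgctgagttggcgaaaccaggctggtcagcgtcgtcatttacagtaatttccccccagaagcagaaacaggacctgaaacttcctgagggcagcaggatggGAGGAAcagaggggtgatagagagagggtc
C1qc, chr4:136893066-136893164: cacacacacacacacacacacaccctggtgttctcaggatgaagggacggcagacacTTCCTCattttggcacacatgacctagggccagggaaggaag
In the 250 bases before the start, on both strands, GAGGAA was present in 23.3% of all 32851 RefSeq promoters of this set. Of the 6 genes with an entry it was found before C1qb and C1qc, and not before C3, C3ar1, C5ar1 or Cfp. The other motifs searched were GAAANNGAA (IRF), found in 7.13% of promoters and once before C5ar1, and TTCNNNGAA (STAT), GGGANTTCC (NF-kappaB) and CACGTG (E-box), found in 7.02%, 1.43% and 6.02% of promoters and before none of the 6 genes. These letters are a description of the windows and name no bound site.

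Library totals ranged from 14441610 to 29977395 reads. The microglia markers Tmem119 and P2ry12 were expressed in every library, at 2782 to 5915 and 4137 to 12079 CPM (counts per unit of 1000000 reads of the library). The 10 microglia markers together summed to 65024 to 72706 CPM in the 14 WT mice and to 50729 to 62398 CPM in the 14 5xFAD mice, without overlap. Libraries stood apart in markers of other cells. The summed level of 7 markers of border-associated macrophages (Mrc1, Pf4, Lyve1, Cd163, F13a1, Ms4a7 and Cbr2) was 34.0 to 253 CPM in ABX 5xFAD mice, 10.0 to 81.0 in GF 5xFAD, 16.1 to 29.2 in SPF 5xFAD, 10.7 to 43.9 in GF WT, 3.48 to 8.15 in SPF WT and 3.80 to 5.90 in ABX WT mice. The 8 neutrophil markers summed to between 61.1 and 263 CPM in the 3 SPF 5xFAD mice and to 144 CPM in mouse FAD_ABX_1151, and to at most 0.774 CPM in the other 24 libraries. The 5 monocyte markers (Ly6c2, Ccr2, Plac8, Chil3 and Vcan) summed to 16.0 to 39.0 CPM in SPF 5xFAD, 14.4 to 52.0 in ABX 5xFAD and 6.02 to 24.9 in GF 5xFAD mice, and to at most 8.57, 9.32 and 16.9 CPM in WT mice in the same order, and of the 4 tested the genotype comparison called 1 higher under SPF, 2 higher and 1 lower under ABX and 0 under GF conditions, where 4.57, 14.4 and 15.6% of all genes changed in either direction. App, the endogenous counterpart of a transgene, was 214 to 280 CPM in GF 5xFAD and 217 to 244 CPM in GF WT mice, so that it does not check the genotype labels of GF mice. Itgax, a gene of the other complement list, was at least 97.4 CPM in every GF 5xFAD mouse, FAD_GF_201 included, and at most 12.6 CPM in GF WT mice, and C3ar1 was 514 CPM in FAD_GF_201 against at most 411 CPM in GF WT mice. Both genes are reported below as genotype results with FAD_GF_201 among the 5xFAD mice. Their values are therefore no independent check of its label. The microglia sum of FAD_GF_201 was 61566 CPM, between the other 4 GF 5xFAD mice (50729 to 52181) and the GF WT mice (65325 to 68082). Its counts also differed more from those of the other 4 (chi-square per degree of freedom 45.5 to 50.3) than theirs did from each other (24.8 to 34.9). Other libraries stood apart by this measure too. Mouse WT_GF_199 gave 29.7 to 37.7 with the other GF WT mice, which gave 11.4 to 14.5 among themselves. Mouse FAD_SPF_1144 gave 27.6 and 30.9 with the other SPF 5xFAD mice, which gave 6.92 with each other.

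The sample descriptions follow 3 numbering series, and the labels do not say what these stand for. One holds all 10 SPF WT and ABX WT mice, another the 3 SPF 5xFAD mice and FAD_ABX_1151, and the third the other 5 ABX 5xFAD mice and all 9 GF mice. The 4 mice of the second series are the 4 libraries with neutrophil markers above 0.774 CPM. Series and genotype thus cannot be told apart in SPF and ABX mice, nor can series and germ-free life where GF mice are compared with SPF mice or with ABX WT mice, while GF WT, GF 5xFAD and 5 ABX 5xFAD mice share 1 series. A term for the series with the GF mice against the others, chosen after the data were seen, was added to the model. It rests on mouse FAD_ABX_1151 alone against the other 5 ABX 5xFAD mice, and its values are given beside the calls of the 8 genes that it changed. Single genes outside the 8 were not examined with it.

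The 8 genes ranged from some of the most abundant transcripts of these libraries to some of the rarest. CPM of single genes were scaled by TMM factors, which correct library totals for a few genes that take many reads. By CPM per kb of exon, averaged over the 28 mice, C1qb (8038) ranked 3rd of 15298 genes, C1qa (3836) 7th and C1qc (3073) 10th. The C1q chains together took 1.44 to 2.56% of the reads of a library. The receptors followed, C3ar1 at 104 and C5ar1 at 94.5 CPM per kb, which placed them 358th and 421st. C4b (1.57 CPM per kb), Cfp (1.22) and C3 (0.317) ranked 9911th, 10501st and 12977th, with 8 to 774, 3 to 265 and 0 to 140 reads in a library. Differences between groups are given as log2 fold changes from 1 edgeR model of all 28 mice, and a gene was called where its p-value, adjusted over all 15298 genes tested, was under 0.05. All 8 genes differed among the 6 groups in the test over all groups, with adjusted p-values between 4.38e-09 for C3ar1 and 0.00611 for C3, where 33.2% of all genes tested did. The plot of CPM by mouse shows the level of each gene in every library.

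**Figure D1:**
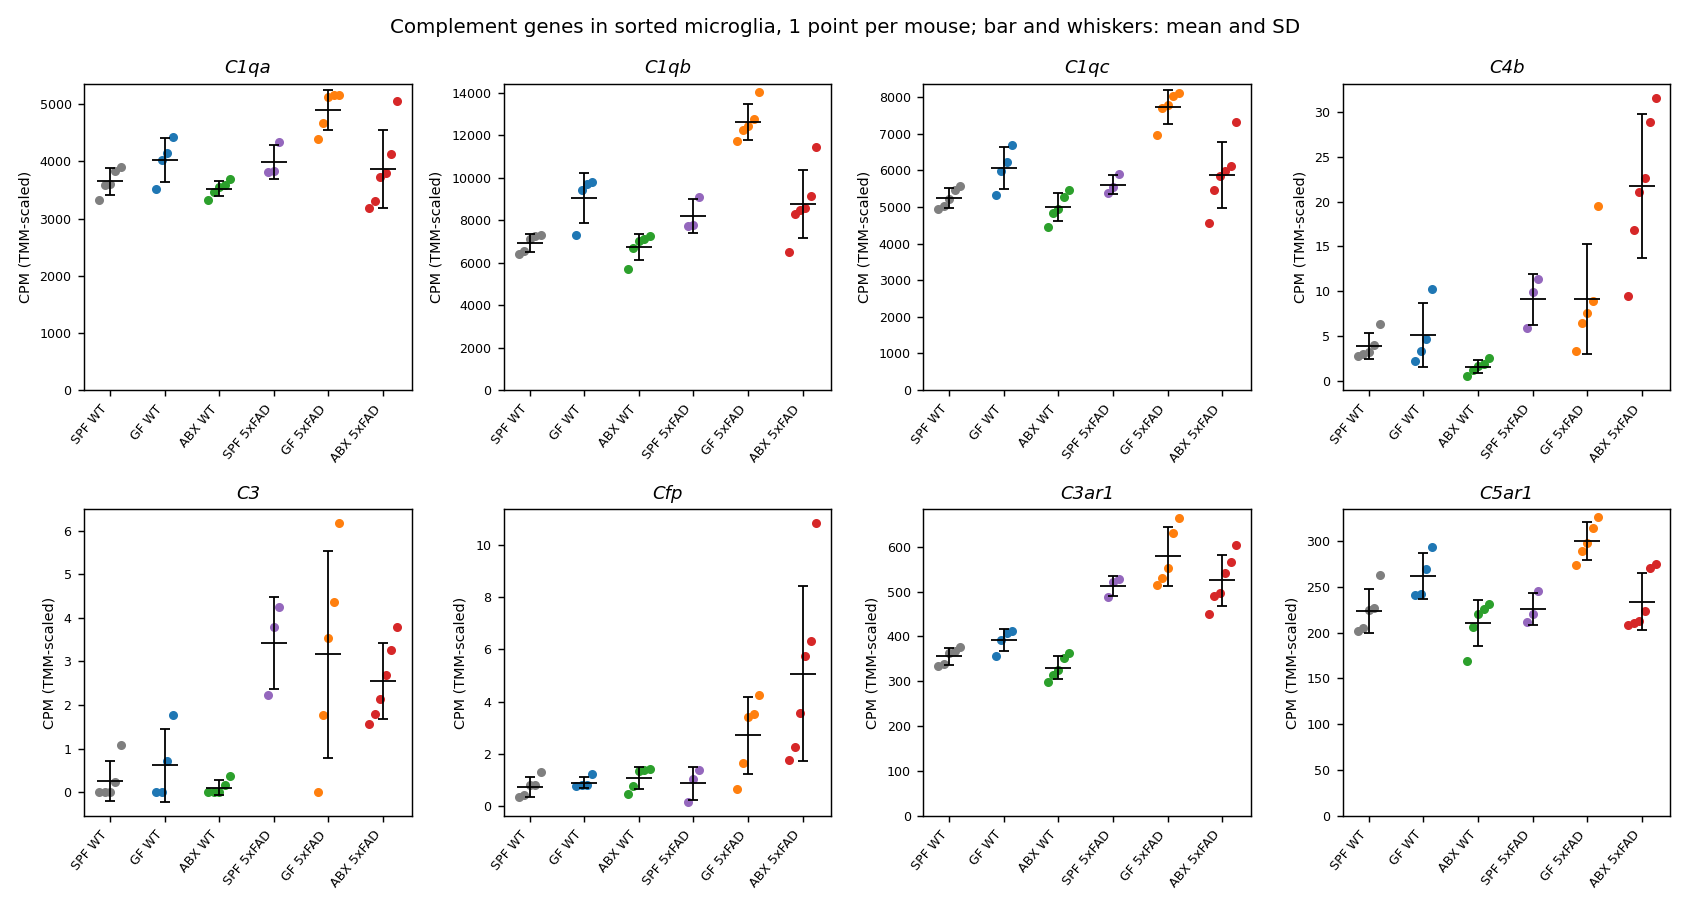
CPM (scaled by TMM, linear axes) of the 8 complement genes in each of 28 mice, by group; points are mice, the horizontal bar is the group mean and the whiskers are 1 SD. All 5 GF 5xFAD mice lie above all other mice for C1qb (11725 to 14016 CPM), and the ABX 5xFAD mice reach the highest C4b (up to 31.6 CPM) and Cfp (up to 10.8 CPM). For C3ar1 the 5xFAD mice lie above the WT mice in each condition, as in 9.44% (SPF), 9.14% (GF) and 4.68% (ABX) of all genes.

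C1q chains, which recognise the target, were highest in GF 5xFAD mice. C1qb was 7239, 7128, 6426, 7298 and 6553 CPM in SPF WT mice and 7106, 6675, 5707, 7238 and 7029 in ABX WT mice. In GF WT mice it was 7282, 9798, 9725 and 9404 CPM. The SPF WT and ABX WT mice overlapped, and 3 of the 4 GF WT mice lay above both groups. In 5xFAD mice C1qb was 9099, 7760.1 and 7733 CPM under SPF conditions and 12249, 12438, 14016, 12751 and 11725 under GF conditions. The 6 ABX 5xFAD mice ranged from 6505 to 11469 CPM with a median of 8534. The lowest GF 5xFAD mouse was thus above the highest mouse of any other group, while the ABX 5xFAD group was the most variable with a coefficient of variation of 18.4%, against 5.89 to 13.2% in the other groups.

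C1qc and C1qa differed less between groups than C1qb. C1qc averaged 5243 ± 272 (SD, n = 5) CPM in SPF, 4995 ± 389 (n = 5) in ABX and 6057 ± 574 (n = 4) in GF mice of the WT genotype, and 5609 ± 267 (n = 3), 5881 ± 907 (n = 6) and 7722 ± 461 (n = 5) in those of the 5xFAD genotype. C1qa averaged 3652 ± 230.96, 3526 ± 137 and 4027 ± 384 CPM in WT mice and 3992 ± 294, 3869 ± 676 and 4904 ± 355 in 5xFAD mice, in the same order. GF 5xFAD mice were the highest group of every chain, and ABX WT mice the lowest. In the order of C1qb, the ranges of GF 5xFAD and GF WT mice were apart, as were those of SPF 5xFAD and SPF WT mice, while GF WT, ABX 5xFAD and SPF 5xFAD mice overlapped with their neighbours. For C1qa the ranges of all neighbouring groups overlapped.

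Under GF conditions all 3 chains rose in 5xFAD mice. The log2 fold change (± SE) of C1qb was 0.48 ± 0.11 (adjusted p = 0.00177, edgeR), that of C1qc 0.35 ± 0.09 (adjusted p = 0.00595) and that of C1qa 0.28 ± 0.09 (adjusted p = 0.0363). With C3ar1, 4 of the 8 complement genes were higher in GF 5xFAD than in GF WT mice and none was lower, where 9.43% of all genes tested were higher and 15.6% changed in either direction. The ranges of 3 of the 8 (C1qb, C1qc and C3ar1) lay wholly above those of the WT mice, as did those of 9.14% of all genes. The median log2 fold change of the 8 genes was 0.52, against -0.03 over all genes tested. The call of C1qa was lost without the low mouse WT_GF_199 (log2 fold change 0.22, adjusted p = 0.155), without any 1 of 5 other GF mice (the highest adjusted p was 0.0743), with scaling by library size alone (0.16, adjusted p = 0.237), without the filter on low counts (0.26, adjusted p = 0.107) and with offsets for gene length (0.12, adjusted p = 0.245). The term for the numbering series is the same for every GF mouse, so that it could not change this comparison and is no check of it. The microglia marker sum was 50729 to 61566 CPM in GF 5xFAD and 65325 to 68082 CPM in GF WT mice. The 7 astrocyte markers summed to 155 to 189 CPM in GF 5xFAD and to 204 to 331 CPM in all other mice. That sum is mostly Slc1a3, at 151 to 324 CPM over all libraries. Of 6 astrocyte markers tested in GF mice, 2 were called higher and 1 lower with the genotype (Gfap, Slc1a3 and Aldoc). The 6 endothelial markers summed to 9.73 to 28.6 CPM in GF 5xFAD and to 34.2 to 41.0 CPM in GF WT mice. Of 4 endothelial markers tested, 0 were called higher and 1 lower (Pecam1). The part of these markers in the change of C1q was not tested. In ABX mice C1qb rose by 0.37 ± 0.10 (adjusted p = 0.00777), with 5 of 6 ABX 5xFAD mice above all ABX WT mice, and C1qc by 0.24 ± 0.08 (adjusted p = 0.0450), a call at the edge of the threshold that held in 22 of 37 alternatives. It was lost, for example, without mouse FAD_ABX_1482 (0.16, adjusted p = 0.142) or mouse WT_ABX_911 (0.20, adjusted p = 0.127), while it held without both FAD_ABX_1482 and FAD_ABX_1151 (0.23, adjusted p = 0.0163). C1qa had a log2 fold change of 0.13 ± 0.08 (adjusted p = 0.319) in ABX mice. With the series term the ABX values turned in direction and were not called, at -0.054 for C1qb (adjusted p = 0.973) and -0.13 for C1qc (adjusted p = 0.831), where 1.59% of all genes were called.

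Under SPF conditions no C1q chain passed the threshold. C1qb had a log2 fold change of 0.24 ± 0.11 (adjusted p = 0.321), although all 3 SPF 5xFAD mice lay above the 5 SPF WT mice, and C1qa and C1qc had 0.13 and 0.10. In a fit of the SPF groups alone C1qb passed (0.25, adjusted p = 0.0338), the 1 of 37 alternatives in which it did. The effect of the 5xFAD genotype on C1qb was larger in GF than in SPF mice by 0.24 on the log2 scale, with a 95% interval from -0.07 to 0.55 (adjusted p = 0.718), so that no difference between the conditions was shown. For C1qc that difference was 0.25 (95% interval -0.0032 to 0.51, adjusted p = 0.610).

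Among conditions, GF 5xFAD mice exceeded SPF 5xFAD mice in C1qb by 0.62 ± 0.12 (adjusted p = 0.00178) and in C1qc by 0.46 ± 0.10 (adjusted p = 0.00344), and the ranges did not overlap. No overlap upwards was seen for 4 of the 8 genes (the C1q chains and C5ar1) and for 10.4% of all genes. C1qa was higher by 0.30 ± 0.10 with an adjusted p of 0.0533, with 5 of 5 GF 5xFAD mice above the 3 SPF 5xFAD mice, and it passed with DESeq2 (0.29, adjusted p = 0.0384) and limma voomWithQualityWeights (0.35, adjusted p = 0.000617), among 8 of 37 alternatives. It was 0.13 with offsets for gene length, and without mouse FAD_SPF_1148 the adjusted p was 0.235. Together with C5ar1, 3 of the 8 genes rose in this comparison, where 12.8% of all genes changed and 6.97% rose. With the series term 0 of the 8 genes and 0% of all genes were called, and C1qb was 0.12 (adjusted p = 1.000), C1qc 0.030, C1qa 0.030 and C5ar1 0.22. ABX 5xFAD mice were lower than GF 5xFAD mice in C1qb (-0.53 ± 0.10, adjusted p = 0.00117), in C1qc (-0.39 ± 0.08, adjusted p = 0.00268) and in C1qa (-0.34 ± 0.08, adjusted p = 0.00970). Each of the 6 ABX 5xFAD mice lay below all 5 GF 5xFAD mice in C1qb, the 1 gene of the 8 without overlap (1.79% of all genes in this direction), and 5 of 6 did so in C1qa and C1qc. In a fit of these 2 groups alone the calls of C1qc (-0.36, adjusted p = 0.0613) and C1qa (-0.31, adjusted p = 0.118) were lost. All 3 chains stayed called with the series term, at -0.46, -0.33 and -0.30.

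In WT mice C1qb was 0.39 ± 0.11 higher under GF than under SPF conditions, with an adjusted p of 0.0562, where 1.62% of all genes changed and none of the 8 complement genes did. The threshold was passed without the low mouse WT_GF_199 (0.48, adjusted p = 0.0164) and with limma voomWithQualityWeights (0.42, adjusted p = 0.000618), among 11 of 37 alternatives. The adjusted p was 0.181 without mouse WT_GF_229, and the series term turned the value to -0.11 (adjusted p = 1.000). ABX WT mice were lower than GF WT mice in C1qb (-0.42 ± 0.11, adjusted p = 0.0148), and all 5 ABX WT mice lay below the 4 GF WT mice. With C4b, 2 of the 8 genes were lower in that comparison, where 6.88% of all genes changed and 4.48% were lower. C1qb and C5ar1, 2 of the 8, were lower without overlap, against 6.17% of all genes. The call of C1qb was lost without mouse WT_GF_229 (-0.38, adjusted p = 0.0616) or mouse WT_ABX_911 (-0.37, adjusted p = 0.0501), and with the series term the value was 0.076 (adjusted p = 0.982) and 0% of all genes were called. Between ABX and SPF mice, 0 of the 8 genes and 0 of all 15298 genes (0%) passed the threshold of edgeR in WT and in 5xFAD mice, with 687 and 1085 genes at an unadjusted p under 0.05. DESeq2 called 0 and 1 of the 8 genes, and limma voomWithQualityWeights 0 and 1, and that gene was Cfp with both tools. DESeq2 called 0.0131 and 0.0523% of all genes in these comparisons, and limma 0 and 0.876%. Cfp was also the 1 gene of the 8 that was higher without overlap in ABX than in SPF 5xFAD mice, against 1.14% of all genes. Any 2 of the comparisons GF with SPF, ABX with SPF and ABX with GF share a group.

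**Figure D2:**
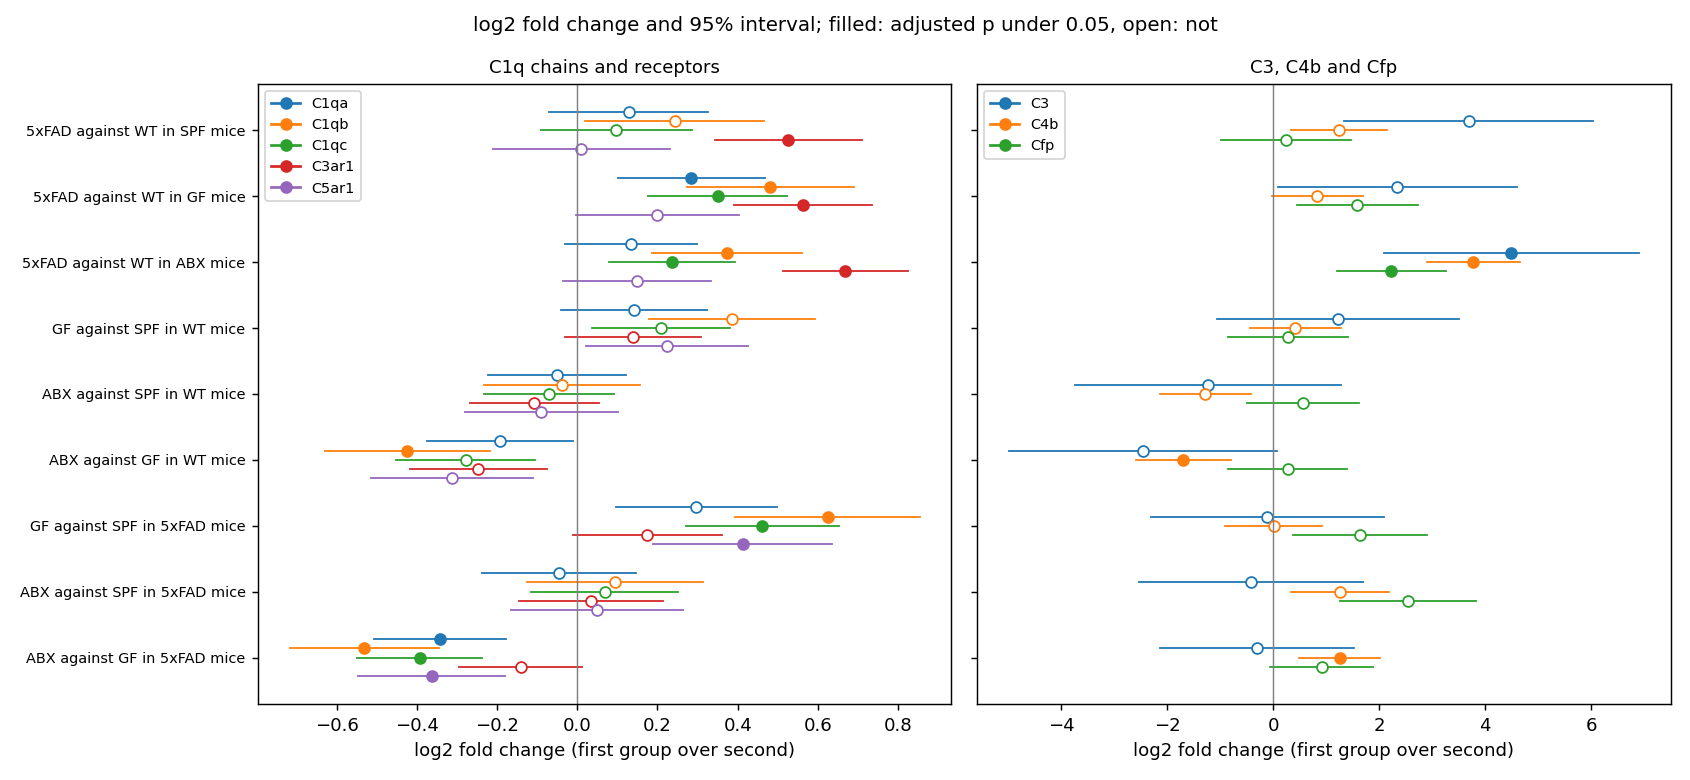
Log2 fold change (edgeR) of each gene with its 95% interval for 9 comparisons of 2 groups, with the C1q chains and receptors at left and C3, C4b and Cfp at right on a wider axis; filled points have an adjusted p under 0.05. The filled points of the C1q chains lie right of 0 where GF 5xFAD mice are compared with GF WT or SPF 5xFAD mice and, for C1qb and C1qc, where ABX 5xFAD mice are compared with ABX WT mice, and left of 0 where ABX mice are compared with GF mice, and C3ar1 is filled in all 3 comparisons of 5xFAD with WT mice.

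The chains did not move in fixed proportion. The ratio of C1qb to C1qa per kb, which compares 2 genes of the same library and so does not depend on the scaling between libraries, averaged 1.81 ± 0.062 (SD) under SPF, 1.83 ± 0.12 under ABX and 2.14 ± 0.12 under GF conditions in WT mice. In 5xFAD mice it averaged 1.96 ± 0.041, 2.17 ± 0.21 and 2.47 ± 0.12. It ranged from 2.30 to 2.60 under GF and from 1.93 to 2.01 under SPF conditions in the 5xFAD mice. The ratio of C1qb to C1qc ranged from 2.705 to 3.06 in GF 5xFAD mice and was 2.27 to 2.46 in SPF WT mice. The ratio of C1qc to C1qa stayed between 0.719 and 1.03 over all mice, with the highest value in an ABX 5xFAD mouse. A ratio shows that the chains changed unequally, not which of them changed.

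**Figure D3:**
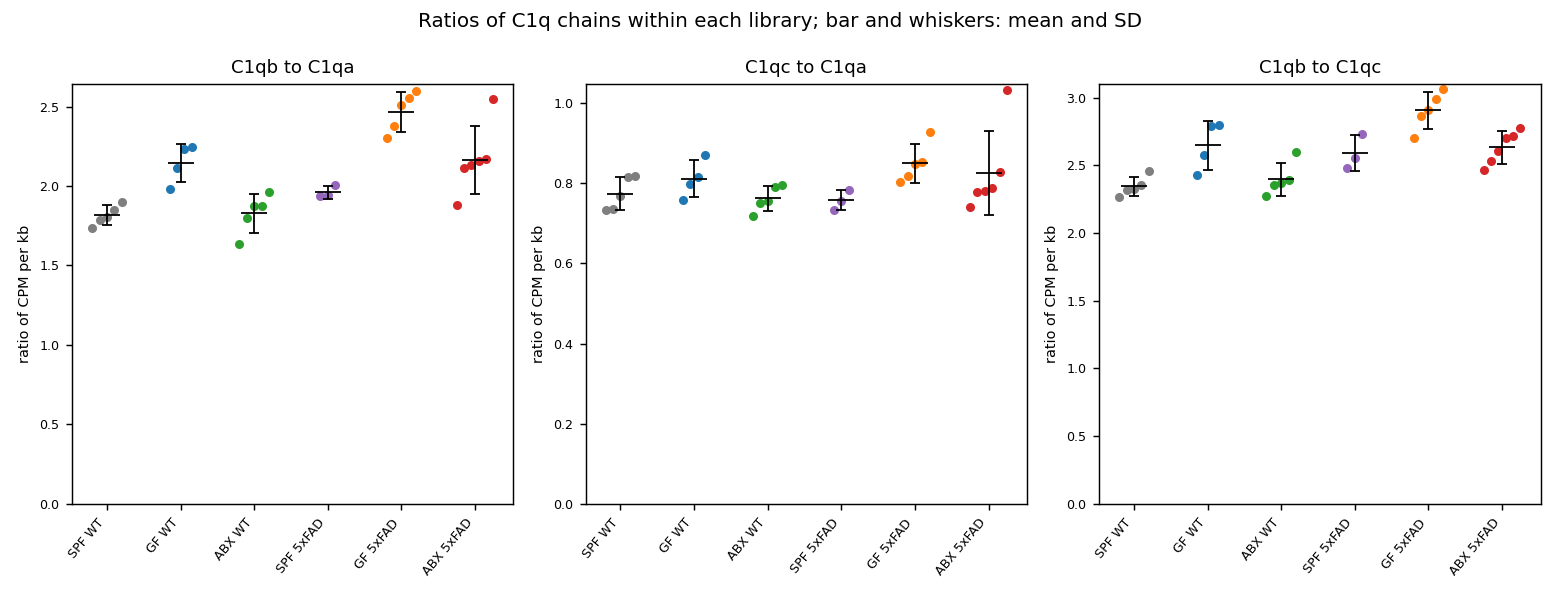
Ratios of CPM per kb between the C1q chains within each library (linear axes from 0), by group; points are mice, the bar is the group mean and the whiskers are 1 SD. The mean of C1qb to C1qa is highest in GF 5xFAD mice (range 2.30 to 2.60) and lowest in SPF WT and ABX WT mice (1.64 to 1.96), and 1 ABX 5xFAD mouse stands above its group in C1qc to C1qa.

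Within groups the chains kept together. The correlation of log2 CPM after subtracting each group mean was 0.92 between C1qb and C1qc, 0.84 between C1qa and C1qb and 0.74 between C1qa and C1qc (28 mice, given as a description of libraries that share their depth and preparation). With C3ar1 these values were 0.07 for C1qa, -0.06 for C1qb and -0.19 for C1qc, and with C5ar1 they were 0.40, 0.42 and 0.45. The genes outside the list whose log2 CPM was most like the mean of the C1q chains over the 28 mice were Rabac1 (Pearson r = 0.97), Edf1 (0.96) and Snrpb (0.96).

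C4b, the complement C4 that C1q-bound proteases cleave, was lowest in ABX WT mice and highest in ABX 5xFAD mice. It was 1.66, 0.529, 2.56, 1.25 and 1.85 CPM in ABX WT mice. In ABX 5xFAD mice it ranged from 9.48 to 31.6 CPM with a median of 21.9. In SPF WT mice it was 2.81, 3.18, 2.96, 6.33 and 4.02 CPM, in GF WT mice 10.2, 3.35, 4.67 and 2.19, in SPF 5xFAD mice 5.92, 9.94 and 11.4, and in GF 5xFAD mice 3.37, 8.85, 7.60, 6.43 and 19.5 CPM. All 6 ABX 5xFAD mice lay above all ABX WT mice, as they did for C3, Cfp and C3ar1 (4 of the 8 genes, against 4.68% of all genes), while the ranges of GF WT and GF 5xFAD mice overlapped.

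In ABX mice C4b rose by 3.78 ± 0.45 on the log2 scale with the 5xFAD genotype (adjusted p = 4.64e-07), and by 3.98 without mice FAD_ABX_1151 and FAD_ABX_1482 (adjusted p = 3.99e-07). With C3, Cfp, C3ar1, C1qb and C1qc, 6 of the 8 genes were higher in ABX 5xFAD than in ABX WT mice, where 9.45% of all genes were higher and 14.4% changed, and none was lower, with a median of 0.52 over the 8 genes and of -0.01 over all genes. The change of C4b was 1.23 ± 0.46 in SPF mice (adjusted p = 0.154) and 0.83 ± 0.44 in GF mice (adjusted p = 0.222). The SPF value passed with limma voomWithQualityWeights (1.40, adjusted p = 0.00382) and in a fit of the SPF groups alone (1.24, adjusted p = 0.0156), the 2 of 36 alternatives in which it did. The GF value rested on single mice, being 1.42 without mouse WT_GF_199 (adjusted p = 0.0447) and 0.36 without mouse FAD_GF_201 (adjusted p = 0.610). The effect of the genotype on C4b was larger in ABX than in GF mice by 2.95 ± 0.60 on the log2 scale (adjusted p = 0.0141), where 1.76% of all genes differed in either direction and 0.915% upwards. Leaving out single mice gave 2.36 (without WT_GF_199, adjusted p = 0.0498) to 3.42 (without FAD_GF_201, adjusted p = 0.00204). With the series term the difference was 1.75 (adjusted p = 0.303, 0% of all genes called), and the rise in ABX mice was 2.58 (adjusted p = 0.0188). Mouse FAD_ABX_1151 had 9.48 CPM of C4b, within the range of the SPF 5xFAD mice of its series. C4b was the only one of the 8 genes to pass any of the 3 tests of a difference between effects. Against SPF mice the difference was 2.55 ± 0.65 (adjusted p = 0.704), and 0 of all genes passed in that test with 1032 at an unadjusted p under 0.05. Between GF and SPF mice 0 genes passed, with 1304 at an unadjusted p under 0.05 (0% in both tests). DESeq2 and limma voomWithQualityWeights called 0 of the 8 genes in both of these tests, and 0.00654 to 0.758% of all genes.

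C4b also differed between ABX and GF mice of the same genotype. ABX WT mice were lower than GF WT mice (-1.70 ± 0.46, adjusted p = 0.0242), a call that was lost without mouse WT_GF_199 (-1.11, adjusted p = 0.146) or mouse WT_ABX_910 (-1.49, adjusted p = 0.0653) and with limma voomWithQualityWeights (-1.59, adjusted p = 0.0931) or the series term (-0.35, adjusted p = 0.982). They also lay below all 5 SPF WT mice (the 1 such gene of the 8, against 0.752% of all genes), with a log2 fold change of -1.29 ± 0.44 that did not pass (unadjusted p = 0.00676). ABX 5xFAD mice were higher than GF 5xFAD mice by 1.25 ± 0.39 (adjusted p = 0.0372). That call was lost without any 1 of 4 GF 5xFAD or 3 ABX 5xFAD mice, at values between 1.05 and 1.25 (the highest adjusted p was 0.0947), and the value was 1.73 without mouse FAD_GF_201. It was also lost in a fit of the 2 groups alone (1.28, adjusted p = 0.0889), and it held with the series term (1.41, adjusted p = 0.0289). C4b was 1 of 5 called genes of the 8 in this comparison, 4 of them lower and C4b alone higher, where 10.6% of all genes changed, 6.07% downwards and 4.52% upwards.

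C4b levels stood beside those of border-associated macrophage markers. In ABX 5xFAD mice the summed markers were 253 CPM in mouse FAD_ABX_1452, 238 in FAD_ABX_1455, 196 in FAD_ABX_1453, 117 in FAD_ABX_1482, 87.5 in FAD_ABX_1460 and 34.0 in FAD_ABX_1151, with C4b at 31.6, 22.7, 28.9, 21.1, 16.8 and 9.48 CPM in the same mice. Among GF mice the order of C4b and of the marker sum differed. Mouse FAD_GF_201 had the highest C4b (19.5 CPM) and the highest marker sum (81.0 CPM) of the GF 5xFAD mice, but mouse FAD_GF_181, with the next highest sum (53.5 CPM), had the lowest C4b (3.37 CPM). Of the GF WT mice, WT_GF_199 had the highest C4b (10.2 CPM) at a sum of 25.7 CPM, and WT_GF_229 had a C4b of 3.35 CPM at the highest sum (43.9 CPM). All 7 markers were called higher in ABX 5xFAD than in ABX WT mice, 5 of 7 in SPF 5xFAD than in SPF WT mice and 0 of 7 in GF 5xFAD than in GF WT mice, where 9.45, 3.73 and 9.43% of all genes were called higher. In ABX against GF WT mice 5 of 7 were lower (4.48% of all genes), and C4b was lower too. In GF against SPF WT mice 5 of 7 were higher (1.62% of all genes changed), and C4b was not called. In ABX against GF 5xFAD mice, where C4b was higher, 1 of 7 (Mrc1) was higher (4.52% of all genes). Of the 7 markers, 2 were at 0 in all SPF WT mice and 2 in all ABX WT mice. Among genes outside the list, Lyve1 (r = 0.84), Gpx3 (0.82) and F13a1 (0.82) were most like C4b over the 28 mice, of which Lyve1 and F13a1 are markers of that list. Their mean log2 CPM was -0.771, -0.367 and 0.954, and Lyve1 was at 0 in 13 libraries. In these bulk samples more cells of a type and more RNA per cell cannot be told apart, and the part of these markers in the change of C4b was not tested.

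C4b has a paralog, C4a (chr17:34809092-34823464), which was read at 0 to 14 counts in a library and was not tested. The copies are nearly identical in sequence, and how the counting treated reads that match both is not given in the sources used here, so that the level of C4b is uncertain to that extent.

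**Figure D4:**
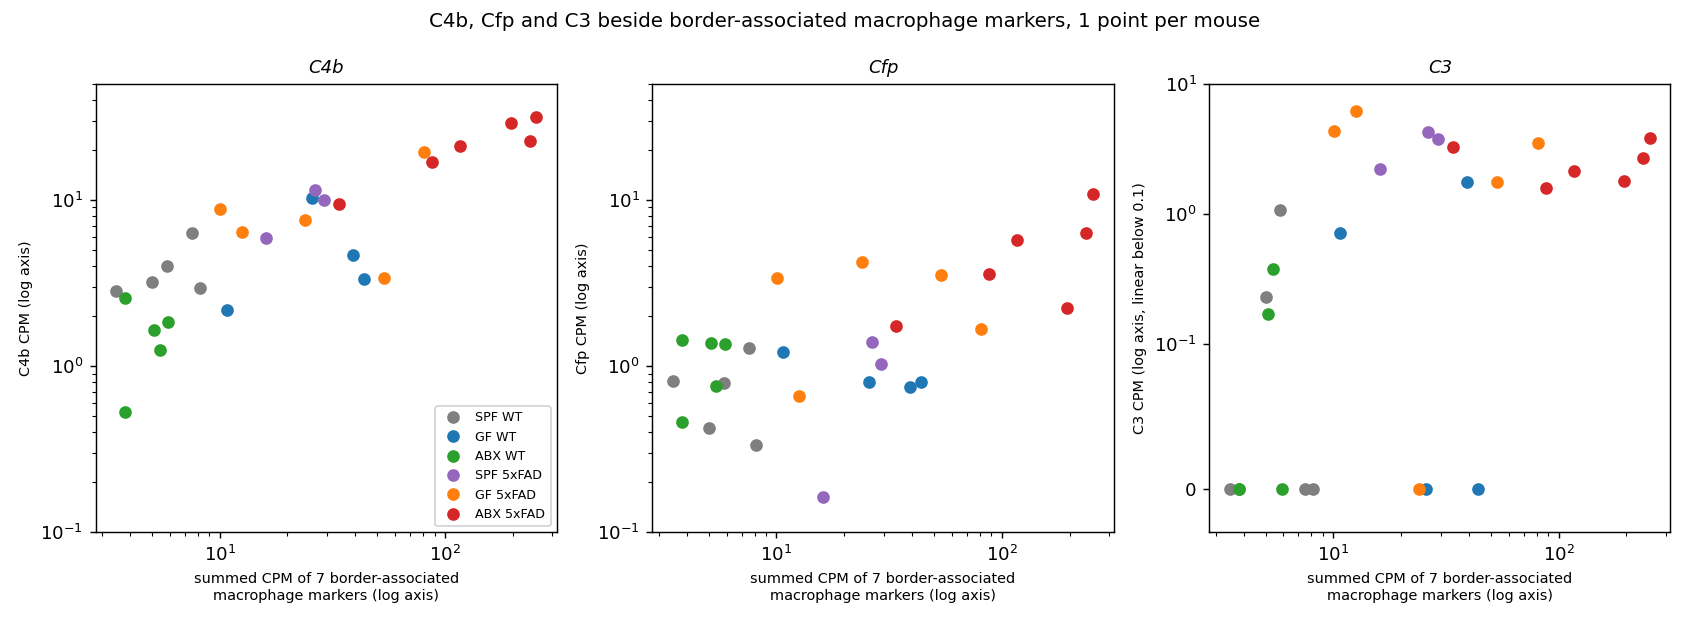
CPM of C4b, Cfp and C3 against the summed CPM of 7 border-associated macrophage markers in each of 28 mice, coloured by group, on log axes (the C3 axis is linear below 0.1 to show libraries at 0). ABX 5xFAD mice lie at the right (34.0 to 253 CPM of markers) with C4b between 9.48 and 31.6 CPM, and the WT mice with the lowest marker sums have C4b of at most 6.33 CPM.

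C3, the central component, was near the limit of detection in WT mice, where a count of 0 allows a level of up to 0.10 to 0.208 CPM by library (3 counts of the total, for counting error only). It was 0 in 3 of 5 SPF WT mice, which otherwise had 0.230 and 1.08 CPM, in 2 of 4 GF WT mice, which otherwise had 1.77 and 0.709, and in 3 of 5 ABX WT mice, which otherwise had 0.172 and 0.380. SPF 5xFAD mice had 2.23, 3.79 and 4.25 CPM. GF 5xFAD mice had 1.76, 4.36, 0, 6.17 and 3.53 CPM, that is from 0 to 140 reads, and ABX 5xFAD mice 1.57 to 3.80 CPM with a median of 2.42. The 6 ABX 5xFAD and 3 SPF 5xFAD mice thus all lay above the WT mice of their condition, while GF 5xFAD mice did not. In SPF mice C3 shared this with C1qb and C3ar1 (3 of the 8 genes, against 9.44% of all genes).

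C3 rose in ABX 5xFAD mice by 4.49 ± 1.23 on the log2 scale (adjusted p = 0.0123), a value that rests on ABX WT libraries with at most 7 reads and was 4.45 without mice FAD_ABX_1151 and FAD_ABX_1482 (adjusted p = 0.0199). With the series term it was 4.85 and was not called (adjusted p = 0.159). In SPF mice it was 3.69 ± 1.20 (adjusted p = 0.0807) and in GF mice 2.34 ± 1.15 (adjusted p = 0.180). Leaving out single mice gave 4.10 to 5.81 for ABX (the highest without WT_ABX_923) and 1.91 to 3.78 for GF mice (the highest without WT_GF_230), and the ABX call held and the GF value stayed uncalled in each. The SPF value passed without mouse WT_SPF_936 (5.64, adjusted p = 0.0137) and with limma voomWithQualityWeights (5.21, adjusted p = 0.0033), among 5 of 36 alternatives. Among 5xFAD mice, the edgeR values of C3 between conditions were at most 0.42 on the log2 scale in size and were not called, with intervals that reach from -2.54 to 2.09. They moved with the tool, and limma voomWithQualityWeights gave -1.38 for GF over SPF and 0.78 for ABX over GF mice. The genes most like C3 were the interferon-induced Oas3 (r = 0.89), Prnp (0.83) and Arhgap26 (0.81). Their mean log2 CPM was -0.726, 2.21 and 3.16, where a count of 0, as in many C3 libraries, gives -3.33.

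Cfp, which encodes properdin, was a rare transcript that was highest in ABX 5xFAD mice. Among WT mice it was 0.815, 0.422, 0.335, 1.29 and 0.795 CPM under SPF, 0.806, 0.807, 0.751 and 1.22 under GF and 1.37, 0.463, 1.43, 0.760 and 1.35 under ABX conditions. SPF 5xFAD mice had 0.163, 1.03 and 1.40 CPM and GF 5xFAD mice 3.53, 3.40, 4.25, 0.661 and 1.66. The 6 ABX 5xFAD mice had 1.75 to 10.8 CPM with a median of 4.65, and all lay above the ABX WT mice.

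Cfp rose in ABX 5xFAD mice by 2.23 ± 0.52 on the log2 scale (adjusted p = 0.00383), and by 2.41 without mice FAD_ABX_1151 and FAD_ABX_1482 (adjusted p = 0.00284). With the series term it was 0.69 (adjusted p = 0.899), and FAD_ABX_1151 had the lowest Cfp of the group (1.75 CPM). The change was 1.59 ± 0.58 in GF mice (adjusted p = 0.0612), which passed with DESeq2 (1.6, adjusted p = 0.0324) and without mouse FAD_GF_185 (1.85, adjusted p = 0.0258), among 4 of 36 alternatives, but not with limma voomWithQualityWeights (1.26, adjusted p = 0.221) or without mouse WT_GF_199 (adjusted p = 0.136). It was 0.24 ± 0.62 in SPF mice (adjusted p = 0.950), and the difference between the ABX and SPF effects was 1.99 (95% interval 0.38 to 3.60, unadjusted p = 0.0219, adjusted p = 0.704). Cd209c (r = 0.82), Cd209a (0.80) and Mndal (0.79) were the genes most like Cfp. They were rare themselves, at a mean log2 CPM of -2.37, -0.470 and -1.96, where a count of 0 gives -3.33. The highest Cfp was that of mouse FAD_ABX_1452, which also had the highest macrophage marker sum, but Cfp was 2.25 CPM in FAD_ABX_1453 at a sum of 196 CPM and 4.25 CPM in FAD_GF_184 at a sum of 23.9 CPM. The monocyte markers summed to 44.3 CPM in FAD_ABX_1452. They were highest in FAD_ABX_1455 (52.0 CPM, of which 50.8 was Ccr2), where Cfp was 6.31 CPM. In mouse FAD_SPF_1144 they reached 39.0 CPM, of which 29.6 was Chil3, beside the lowest Cfp (0.163 CPM). Chil3 was at 0 in 23 libraries, and FAD_SPF_1144 had the highest neutrophil marker sum (263 CPM). These monocyte sums thus rest on different genes. The part of macrophage and monocyte markers in Cfp and C3 was not tested.

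C3ar1, the receptor for C3a, was higher in 5xFAD mice in every condition. Among WT mice it was 335, 368, 362, 377 and 337 CPM under SPF, 391, 357, 408 and 411 under GF and 363, 325, 351, 299 and 315 under ABX conditions. It was 528, 521 and 488 CPM in SPF 5xFAD and 552, 530.0, 631, 665 and 514 in GF 5xFAD mice, and 449 to 605 with a median of 519.5 in ABX 5xFAD mice. In each condition the 5xFAD mice all lay above the WT mice, as they did for 9.44% of all genes under SPF, 9.14% under GF and 4.68% under ABX conditions. The 14 5xFAD mice together also lay above the 14 WT mice, and the share of all genes that do so was not computed.

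The 5xFAD effect on C3ar1 was 0.53 ± 0.09 on the log2 scale in SPF mice (adjusted p = 0.000356), 0.56 ± 0.09 in GF mice (adjusted p = 2.74e-05) and 0.67 ± 0.08 in ABX mice (adjusted p = 4.13e-07). It was the only one of the 8 genes called in SPF mice, where 3.73% of all genes were higher and 4.57% changed in either direction, with a median of 0.24 over the 8 genes and of -0.03 over all genes. No difference between these effects passed, with differences of 0.036 to 0.14 on the log2 scale and 95% intervals that together reached from -0.22 to 0.38. Between conditions of the same genotype C3ar1 had no call, the largest value being -0.25 ± 0.09 for ABX against GF WT mice (adjusted p = 0.0825), which passed in 1 of 37 alternatives, with limma voomWithQualityWeights (-0.24, adjusted p = 0.0430). Fbn2, Lilrb4a and Clic4 were most like C3ar1 over the 28 mice (r = 0.94 each), of which Fbn2 was rare (mean log2 CPM -0.360).

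C5ar1, the receptor for C5a, was highest in GF 5xFAD mice and had no call for the genotype. It was 225, 262, 205, 202 and 226 CPM in SPF WT mice, 293, 241, 270.0 and 242 in GF WT mice and 221, 226, 169, 231.05 and 206 in ABX WT mice. In 5xFAD mice it was 246, 212 and 220.1 CPM under SPF and 298, 315, 274, 327 and 289 under GF conditions, and under ABX it ranged from 209 to 275 with a median of 218. Only 1 of the 6 ABX 5xFAD mice reached the lowest GF 5xFAD mouse, and none of the 3 SPF 5xFAD mice did. GF 5xFAD mice exceeded SPF 5xFAD mice by 0.41 ± 0.11 (adjusted p = 0.0176), and ABX 5xFAD mice were lower than GF 5xFAD mice (-0.36 ± 0.09, adjusted p = 0.0127). The GF against SPF call was lost without SPF 5xFAD mouse FAD_SPF_1146 (0.35, adjusted p = 0.114) or FAD_SPF_1148 (0.38, adjusted p = 0.0992), with scaling by library size alone (0.32, adjusted p = 0.0535) and with offsets for gene length (0.32, adjusted p = 0.0528). It was also lost with the series term (0.22), where 0% of all genes were called. The ABX against GF call was lost in a fit of these 2 groups alone (-0.33, adjusted p = 0.0883). In WT mice all 5 ABX mice lay below the 4 GF mice in C5ar1 (-0.31 ± 0.10, adjusted p = 0.063), and 4 of 37 alternatives called this difference, DESeq2 among them (adjusted p = 0.0312). The 5xFAD effect on C5ar1 was 0.011 ± 0.11 for SPF, 0.15 ± 0.094 for ABX and 0.20 ± 0.10 for GF mice, with no call. Fam213b (r = 0.86), 2810428I15Rik (0.86) and Hras (0.85) were most like C5ar1.

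Of 44 other complement genes listed, 19 were tested. In 5xFAD against WT mice, 5 of these 19 were higher and 0 lower under SPF conditions, 6 were higher and 1 lower under ABX, and 4 were higher and 1 lower under GF conditions, where 3.73, 9.45 and 9.43% of all genes were higher. Their median log2 fold change was 0.33, 0.51 and 0.28, beside the medians of all genes given above. Itgax, a subunit of complement receptor CR4, rose from 8.29 to 97.8 CPM on average in SPF, from 8.92 to 131 in GF and from 8.17 to 71.1 in ABX mice (log2 fold changes 3.57, 3.87 and 3.13, with adjusted p-values of at most 5.14e-10). Masp1, a protease of the lectin pathway, rose by 1.41, 2.18 and 1.32, and C2, the partner of C4 in the classical C3-cleaving enzyme, rose by 4.13, 4.52 and 3.65 from group means of 0.0891, 0.132 and 0.176 CPM in WT mice. Itgb2, the shared subunit of the complement receptors CR3 and CR4, rose in GF (0.43) and ABX mice (0.62), and Cr1l, a membrane regulator, fell by 0.27 in ABX mice. Fcna, a ficolin of the lectin pathway, averaged 2.45 CPM in ABX 5xFAD mice and was 0 in all 5 ABX WT mice, and it rose in SPF mice. Itgam, the other subunit of CR3 and the CD11b of the sort, was lower in GF 5xFAD than in GF WT mice (-0.37, adjusted p = 0.00882) and than in SPF 5xFAD mice (-0.46, adjusted p = 0.00542). C5ar2, the second receptor of C5a, was lower in GF than in SPF 5xFAD mice (-0.54, adjusted p = 0.0323) and higher in ABX than in GF 5xFAD mice (0.44, adjusted p = 0.0413), which is the opposite direction to C5ar1. Fcnb, a ficolin known from neutrophils that is named here after its values were seen, averaged 1.29 CPM in SPF 5xFAD mice and was 0 in all SPF WT mice, beside the neutrophil markers given above, whose part was not tested.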

How the data were processed

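Sequencing of 28 libraries of sorted hippocampal microglia gave, per the study's methods, reads mapped to GRCm38 with STAR and counted by the authors with featureCounts on GENCODE M21. The submitters' notes name STAR 2.7.2, featureCounts 1.6.2 and the build GRCh38.p12, while the positions in the table are those of mouse GRCm38. The table deposited by the authors holds unnormalized read counts, with the summed exon length of each gene. How multi-mapping reads and strand were handled is not given in the sources used here. The 92 spike-in entries, at most 6.41e-05% of a library, were left out, and 0 columns of per-sample values were unused.

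Groups came from the labels. Counts were tested in R 4.3.3 with edgeR 4.0.16 (glmQLFit, glmQLFTest, TMM factors 0.918 to 1.07) in 1 model of all 28 mice with a term per group, after filterByExpr (minimum count 10, minimum total 15), with Benjamini-Hochberg adjustment over all 15298 genes and a threshold of 0.05. CPM values of genes are scaled by TMM, those of marker lists by library total, and log2 CPM used a prior count of 2. Intervals are normal intervals from the SE. DESeq2 1.42.0 and limma 3.58.1 (voomWithQualityWeights, the method of the study), 2 other scalings, 2 other filters, length offsets, fits of 2 groups alone, a set of 26 mice without FAD_ABX_1151 and FAD_ABX_1482, and leaving out each mouse were alternatives, and a term for the numbering series of the sample descriptions was added after the data were seen. The 8 genes are all named in every comparison, with 3 genes most like each and up to 8 other complement genes past the threshold in at least 1 of 9 comparisons. Members and lists were chosen with earlier results of these data known. Each library is 1 mouse, so p-values measure the spread between mice, and counting error was small beside it for C1q and the receptors.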

Additional observations from a re-analysis of the deposited data

Results flagged for a closer look

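In 40 groups of 4 to 6 mice (8 genes in 5 groups), Dixon's test at the 95% level found 3 mice far from the others of their group, where chance gives about 1 in 20 groups. C1qb was 7282 CPM in mouse WT_GF_199, against 9404 to 9798 in the other GF WT mice. C3 was 1.08 CPM in mouse WT_SPF_936, against 0 to 0.230 in the other SPF WT mice. Cfp was 1.22 CPM in mouse WT_GF_231, against 0.751 to 0.807 in the other GF WT mice. The 5xFAD effect on C4b differed between ABX and GF mice by 2.95 on the log2 scale in the test of that difference (95% interval 1.77 to 4.13, adjusted p = 0.0141, edgeR). Without single mice it was 2.36 (without WT_GF_199, adjusted p = 0.0498) to 3.42 (without FAD_GF_201), and with a term for the numbering series of the sample descriptions it was 1.75 (adjusted p = 0.303).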

How the results depend on the processing

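Over 96 log2 fold changes (8 genes, 12 comparisons) and 3488 values under the alternatives chosen first, 69 values changed sign, 0 of them of a called result. The calls of C3ar1 in all 3 conditions, of C1qb in GF and ABX mice, of C1qc in GF mice, of C3, C4b and Cfp in ABX mice, of C1qb and C1qc between GF and SPF 5xFAD mice and of C1qb between ABX and GF 5xFAD mice held in every one of these in which the gene was tested. Requiring 10 counts in every library left C3, C4b and Cfp untested, which by construction gave 3 called genes of the 8 for 5xFAD against WT in ABX mice, 1 for ABX against GF in WT mice, 0 for the difference between the ABX and GF effects and 5 for any difference (18.2, 11.2, 2.91 and 44.0% of all genes). The cause of the other changes was not tested. For 5xFAD against WT in SPF mice (1 gene called, 4.57% of all genes) the count was 2 without the low-count filter (2.21%), 3 with limma voomWithQualityWeights (14.1%) and 4 in a fit of the 2 groups alone (9.71%). For GF against SPF in WT mice (0, 1.62%) it was 1 with RLE, DESeq2, length offsets or 26 mice (1.74 to 4.71%) and 2 with limma (10.7%) or 2 groups alone (9.60%). For ABX against GF in WT mice (2, 6.88%) it was 4 with DESeq2, limma, length offsets or 26 mice (7.96 to 13.2%). It was 5 with DESeq2 (16.5%) for GF against SPF in 5xFAD mice (3, 12.8%), 1 with DESeq2 (0.0523%) or limma (0.876%) for ABX against SPF in 5xFAD mice (0, 0%), and 1 in 2 groups alone (1.89%) for ABX against GF in 5xFAD mice (5, 10.6%). Leaving out single mice gave 1 to 2 genes for 5xFAD against WT in SPF, 3 to 5 in GF and 5 to 6 in ABX mice (2.73 to 5.30, 11.7 to 18.1 and 9.90 to 17.7% of all genes). In WT mice it gave 0 to 1 for GF over SPF, 0 for ABX over SPF and 1 to 4 for ABX over GF (0.352 to 2.92, 0 to 0.0066 and 2.91 to 8.66%). In 5xFAD mice these were 2 to 4, 0 and 4 to 5 (3.41 to 15.1, 0 to 0.384 and 6.39 to 16.3%). It gave 0, 0 and 1 for the differences between effects (0 to 0.0529, 0 to 0.00652 and 0.554 to 3.24%), and 8 for any difference (28.7 to 36.5%).

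A term for the numbering series of the sample descriptions, added after the data were seen and resting on mouse FAD_ABX_1151, gave 2 called genes of the 8 for 5xFAD against WT in ABX mice (1.59% of all genes), and 0 (0%) for ABX against GF in WT mice, GF against SPF in 5xFAD mice and the difference between the ABX and GF effects. It turned the called values of C1qb (-0.054) and C1qc (-0.13) for 5xFAD against WT in ABX mice and of C1qb (0.076) for ABX against GF in WT mice. Uncalled values that it turned were C1qa (-0.091) and C5ar1 (-0.014) for 5xFAD against WT in ABX mice, C1qa (-0.13), C1qb (-0.11), C1qc (-0.22), C4b (-0.94) and Cfp (-1.43) for GF against SPF in WT mice, and C1qa (0.075) and C1qc (0.15) for ABX against GF in WT mice. In 5xFAD mice they were C3 (0.33), C4b (-1.35) and Cfp (-0.079) for GF against SPF and C1qb (-0.33), C1qc (-0.30) and C5ar1 (-0.11) for ABX against SPF. Between effects they were C1qa (-0.22), C1qb (-0.30), C1qc (-0.23) and C5ar1 (-0.025) for ABX and SPF, and Cfp (-0.90) for ABX and GF. The test of any difference was not run with this term.

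Under the alternatives chosen first, values that changed sign were all without a call. For 5xFAD against WT in SPF mice C5ar1 was -0.036 with library size alone and with limma. For GF against SPF in 5xFAD mice C4b was -0.00088 with RLE, -0.084 with library size alone, -0.018 without the low-count filter, -0.00011 with DESeq2, -0.35 with limma and -0.010 in 2 groups alone. C3 was 0.78 with limma for ABX against GF in 5xFAD mice. For the difference between the GF and SPF effects C3ar1 was -0.043 with library size alone and C1qa -0.012 with length offsets. For that between ABX and SPF, C1qa was -0.0058 with RLE and DESeq2, -0.024 with library size alone, -0.0078 with 10 counts in every library, -0.013 with limma and -0.054 in 26 mice. For that between ABX and GF, length offsets gave 0.021 for C1qa and 0.058 for C1qb.

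Leaving out single mice gave ranges across 0 for C5ar1 (-0.048 to 0.073) and Cfp (-0.27 to 0.73) for 5xFAD against WT in SPF mice, C3 (-0.22 to 3.18) and C4b (-0.18 to 0.67) for GF against SPF in WT mice, C1qb (-0.060 to 0.019) and C3 (-2.54 to 0.72) for ABX against SPF in WT mice, and C3 (-0.51 to 0.20) and C4b (-0.47 to 0.21) for GF against SPF in 5xFAD mice. The same held for C1qa (-0.14 to 0.015), C1qc (-0.0045 to 0.12), C3ar1 (-0.0094 to 0.076) and C5ar1 (-0.0060 to 0.11) for ABX against SPF in 5xFAD mice and C3 (-0.63 to 0.084) for ABX against GF in 5xFAD mice. Between effects, it held for C3 (-3.29 to 0.079), C3ar1 (-0.020 to 0.075) and C4b (-0.88 to 0.19) for GF and SPF, and for C1qa (-0.086 to 0.065) and C3 (-1.14 to 2.11) for ABX and SPF. Scaling by library size alone shifted the median of all genes by at most 0.12 in size, from -0.03 to -0.15 for 5xFAD against WT in GF mice. No paired analysis was possible because no mouse number is shared between groups. Of the genes most like each member, Arhgap26, Gpx3, Clic4 and Cd209a were no longer among the 3 closest in 26 mice. Depth limits C3, C4b and Cfp, which had libraries with 0, 8 and 3 reads.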
